A study of Mus musculus with 6 samples.

Results

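The genes described here are the rows of precursor microRNAs, the hairpin RNAs from which mature microRNAs are cut, that were detected in RNA-seq of mouse satellite cells. They were chosen by symbol (Mir or Mirlet followed by a digit, without host genes whose symbol ends in hg) and selected on their level: TPM had to reach 1 in 3 or more of the 6 libraries. TPM is a level corrected for the length of a transcript and set, when computed, to a common library total. Of 1172 hairpin rows among 24980 listed genes, 675 were listed at 0 in every library, 497 were above 0 in at least 1 library and 223 passed the rule. Satellite cells, the stem cells of skeletal muscle, were sorted by flow cytometry from hindlimb muscles of adult C57BL6/J mice. Both groups, 3 libraries labelled scERα WT and 3 labelled scERα KO, came from mice given tamoxifen, 10 mg in total, and the KO is of estrogen receptor α in satellite cells. The labels name neither the Cre driver nor whether each library is a separate mouse, so p-values measure only the spread between these libraries, which may be technical. The comparison asks which hairpin genes differ between KO and WT satellite cells.

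A microRNA gene is transcribed as a long primary transcript, often one that also makes a protein or a long noncoding RNA. Drosha and Dgcr8 cut the hairpin out in the nucleus, Xpo5 exports it, Dicer1 cuts off its loop, and an Argonaute protein loads the mature strand and represses mRNAs that pair with its seed. In muscle, Mir1, Mir133 and Mir206 rise as myoblasts differentiate, while others such as Mir489 and Mir31 are known from quiescent satellite cells. The libraries were made from total RNA with a standard Illumina protocol, so a hairpin value here is read from fragments over the hairpin's annotated interval and is not a measure of the mature microRNA, which such libraries largely lose.

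The sequences the results turn on are shown first, from RefSeq on GRCm38.p6, 5′ to 3′. The 4 hairpins printed whole are the most abundant one (Mir6516), both that were called between groups (Mir3057 and Mir8105) and Mir21a, whose groups did not overlap. Capitals mark the annotated mature strands.
Mir6516: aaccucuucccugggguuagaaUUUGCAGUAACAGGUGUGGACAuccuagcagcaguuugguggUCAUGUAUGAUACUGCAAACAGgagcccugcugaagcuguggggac
Mir3057: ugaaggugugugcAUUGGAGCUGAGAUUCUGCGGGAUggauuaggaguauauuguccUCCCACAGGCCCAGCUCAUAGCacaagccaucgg
Mir8105: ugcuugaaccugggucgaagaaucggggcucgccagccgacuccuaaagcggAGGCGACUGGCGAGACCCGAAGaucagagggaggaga
Mir21a: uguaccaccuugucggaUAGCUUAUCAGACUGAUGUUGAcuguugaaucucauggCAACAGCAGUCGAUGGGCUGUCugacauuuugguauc

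RefSeq mature sequences were matched for 208 of the 223 genes. They gave 336 mature sequences with 305 different seeds (bases 2 to 8), of which 22 seeds were shared by 2 or more genes, 45 genes in all. The sets below are shown because their genes lie in clusters described further on or share 1 seed across clusters. Capitals mark the seed. The let-7 family, which restrains proliferation in many tissues, had 6 detected genes with the seed GAGGUAG.
mmu-let-7a-5p: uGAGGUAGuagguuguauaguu
mmu-let-7c-5p: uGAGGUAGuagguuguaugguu
mmu-let-7d-5p: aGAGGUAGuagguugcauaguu
mmu-let-7e-5p: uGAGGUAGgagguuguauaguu
mmu-let-7f-5p: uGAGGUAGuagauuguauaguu
mmu-miR-98-5p: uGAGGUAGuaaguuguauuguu
The seed AAAGUGC was shared by Mir17 and Mir20a of one cluster and Mir93 and Mir106b of another, both known for promoting proliferation. Mir19a and Mir19b-1 shared GUGCAAA, and Mir221 and Mir222, known repressors of the cell cycle inhibitor Cdkn1b, shared GCUACAU.
mmu-miR-17-5p: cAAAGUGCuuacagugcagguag
mmu-miR-20a-5p: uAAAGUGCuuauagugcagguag
mmu-miR-93-5p: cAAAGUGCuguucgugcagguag
mmu-miR-106b-5p: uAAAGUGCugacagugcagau
mmu-miR-19a-3p: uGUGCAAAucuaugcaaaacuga
mmu-miR-19b-3p: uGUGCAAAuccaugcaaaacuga
mmu-miR-221-3p: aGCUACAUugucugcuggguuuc
mmu-miR-222-3p: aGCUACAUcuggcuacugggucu
The summed TPM of the 6 genes with the let-7 seed was 56.7, 109 and 50.3 in WT libraries 1, 2 and 3 and 71.4, 67.3 and 36.3 in KO libraries 1, 2 and 3. The lowest sum was a KO library and the highest a WT library, and the ranges overlapped. The 4 genes with AAAGUGC summed to 32.4, 23.1 and 1.37 TPM in WT and 30.3, 20.9 and 7.62 in KO, and these ranges overlapped too. From here on, 6 values in a row are always WT libraries 1, 2 and 3, then KO libraries 1, 2 and 3.

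The targeted gene, Esr1, was listed at 7.53, 6.96 and 6.94 TPM in WT and 2.92, 3.69 and 3.87 in KO. The KO mean was 48.9% of the WT mean and the groups did not overlap, but the adjusted p was 0.0925 (limma on log2(TPM + 1), Benjamini-Hochberg over 8971 genes, log2 difference -0.86, SE 0.13). The exact two-sided permutation p was 0.1, the smallest that 3 against 3 libraries can give. With robust variance estimation the adjusted p was 0.0240 and with estimated library weights 0.0222. The listed TPM summed to between 295306 and 334382 per library, so the listed rows alone do not share a common total. All 10 satellite cell markers were tested and the summed level of this list overlapped between groups (383 to 516 TPM in WT, 411 to 539 in KO). Erythroid markers ranged from 18.3 to 215 TPM in WT and from 38.4 to 437 in KO. Endothelial markers summed to 11.6 to 17.9 and 11.4 to 23.4 TPM, leukocyte markers to 3.37 to 9.5 and 5.12 to 7.78, mural cell markers to 36.6 to 37.5 and 37.4 to 56.9, and fibroblast markers to 110 to 212 and 123 to 152. No marker of these lists was at 0 in all libraries. In bulk samples, fewer cells of a type and less RNA per cell cannot be told apart.

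Most detected hairpins had low values, and most had at least 1 library at 0. The mean over 6 libraries ran from 0.853 to 1024 TPM with a median of 4.45. Only 6 hairpins had a mean of 100 TPM or more, 41 lay from 10 to under 100, and 176 lay under 10. A value of 0 in at least 1 library was found in 145 of the 223 (65.0%), against 24 of the other 8748 genes tested (0.274%). Among genes with a mean from 1 to under 10 TPM the shares were 137 of 171 hairpins (80.1%) and 20 of 7071 other genes (0.283%). At the edge of the rule, Mir7060 had a third-highest value of 1 TPM and Mir692-2 and Mir692-3 of 1.02. The last pair had identical values in all libraries and cannot be told apart. Just outside lay Mir3471-1 (0.96), Mir433 (0.8) and Mir100, which was at 5.47 TPM in KO library 1 and at 0 in the other libraries.

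The low values came in discrete steps. Within a library, hairpins of one length took values that were whole multiples of a smallest value, here called 1 step, which is the pattern that whole reads assigned to a gene of that length would give. This was found after the data were seen, and no read counts were used. In WT library 1, 1 step was 2.4 TPM for a hairpin of 60 nucleotides (nt) and 1.53 TPM for one of 110 nt. In every library 1 step lay above the 1 TPM of the rule for all lengths up to 110 nt (lowest 1.31 TPM, in WT library 3). For a length of 91 nt, 1 step was 1.86, 2.41, 1.67, 1.67, 2.19 and 1.97 TPM in the 6 libraries. Of the 692 values of detected hairpins above 0 and under 8.5 steps, 649 (93.8%) lay within 0.1 of a whole number of steps. A single step accounted for 243 of these values and 2 steps for 149. Steps could be assigned to 185 of the 223 hairpins, those from 58 to 110 nt, and their median was 11 steps summed over all 6 libraries. In 66 of them no library held more than 3 steps, and 12 had over 100 steps in all.

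**Figure D1:**
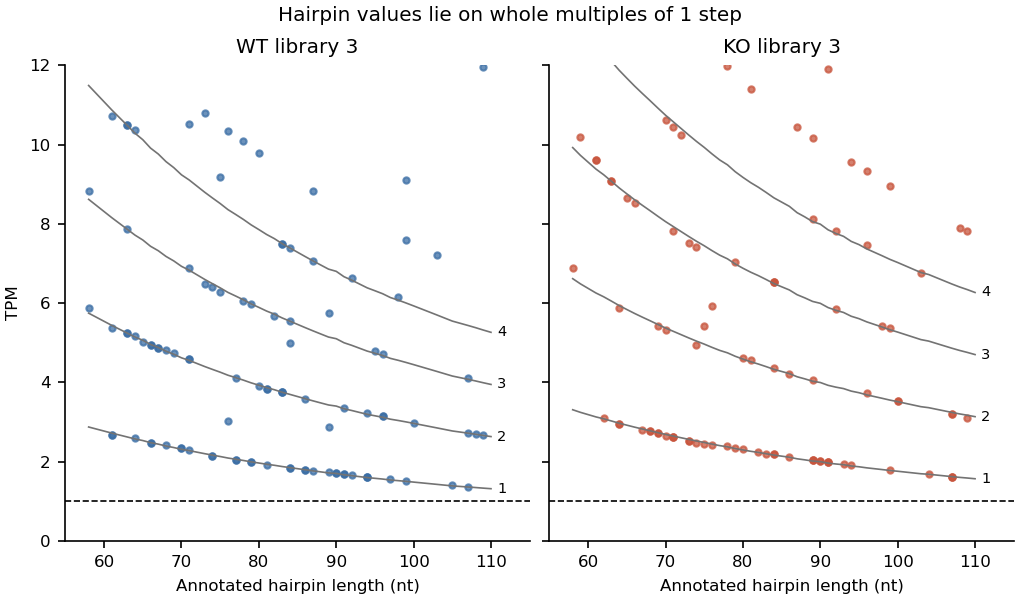
TPM (vertical axis, shown up to 12) of each detected hairpin with a value above 0 against its annotated length in nt, in WT library 3 (left, blue) and KO library 3 (right, red). Grey curves are 1, 2, 3 and 4 times the fitted step and the dashed line is the 1 TPM of the rule; most points up to 4 steps lie on a curve, and the curve for 1 step stays above the dashed line.

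The spread between libraries was smaller in hairpins with more than 20 steps. The median residual SD on the log2 scale was 1.11 in the 47 hairpins with 3 to 6 steps in all, 1.32 in the 87 with 7 to 20, 0.829 in the 39 with 21 to 100 and 0.481 in the 12 with more. Over all 223 it was 1.05, against 0.178 in the other genes tested. All 47 hairpins of the lowest class had a 0 in some library and none of the 12 in the highest class did.

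The most abundant hairpins lay mainly inside other genes. Mir6516, in an exon of the noncoding RNA gene Snhg20 on chromosome 11 (chr11:117077348-117077457, plus strand), was listed at 1222, 1329, 994, 990, 851 and 757 TPM. All WT libraries lay above all KO libraries, the lowest WT value barely above the highest KO value, and the adjusted p was 0.371. The mean was 255 times that of Snhg20, and 88 nt of the hairpin overlap the annotated small Cajal body RNA Gm26083, whose reads cannot be told apart from it. Mir3064, in an exon of Ddx5 (a helicase that works with Drosha), was listed at 196, 362, 240, 224, 356 and 222 TPM while Ddx5 stood at 174, 226, 174, 219, 221 and 170. The groups overlapped in both, and both were highest in WT library 2 and had their second-highest value in KO library 2. Mir1949 (mean 203 TPM) and Mir3068 (mean 195 TPM) followed, and both rows are also annotated as snoRNA in GENCODE vM21. The remaining 8 of the top 12 were Mir466q in an intron of Tnik, Mir3473f in an intron of Bcl2, Mir568 in an exon of Zbtb20, Mir1938 in an intron of Ifrd1, Mir5098 in an intron of Rest, Mir1983 in no annotated gene, Mir1894 in an exon of Ppp1r10, and Mir222. Their means ran from 49.6 to 166 TPM. Mir3473f was listed at 103, 91.1, 103, 122, 172 and 111 TPM, with every KO value above every WT value and an adjusted p of 0.472.

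**Figure D2:**
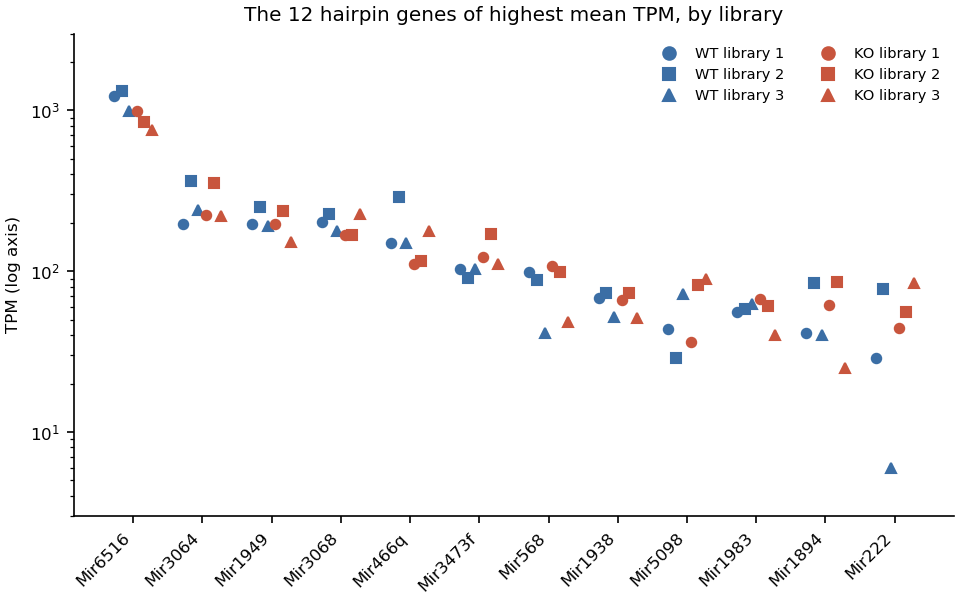
TPM on a log axis of the 12 hairpin genes of highest mean, in each of the 3 WT (blue) and 3 KO (red) libraries. Mir6516 lies at 757 TPM or more in every library and Mir222 spreads most, from 5.97 TPM in WT library 3 to 84.5 TPM in KO library 3.

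The sum over all 223 hairpins was 3648, 4549, 3165, 3576, 3967 and 3395 TPM, between 0.991% and 1.36% of the listed total, and overlapped between groups. The 5 most abundant held 54.0% to 55.4% of that sum in WT and 43.5% to 47.3% in KO. These shares did not overlap. Without Mir6516 the sum was 2425, 3219, 2171, 2587, 3116 and 2639 TPM, again overlapping.

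By annotation, 153 of the 223 hairpins lay inside another gene on the same strand, 118 of them in protein-coding genes and 34 in long noncoding RNA genes. There were 55 that overlapped a host exon and 98 that lay in an intron, and 70 had no host on their own strand, 20 of them inside a gene on the opposite strand and 50 in no annotated gene. The median of the mean TPM was 5.58 for exonic, 3.80 for intronic and 4.08 for hairpins with no host, with exonic hairpins the highest class. Of 140 hairpins whose host was above 0, 60 had a higher mean TPM than the host and 80 a lower one. Overlap with a small nucleolar or small Cajal body RNA gene was annotated for 8: Mir1291, Mir1839, Mir1949, Mir3068, Mir3084-1, Mir5121, Mir6516 and Mir677. Reads of overlapping genes cannot be told apart in any of these cases, nor can reads of opposite strands, since no source used here gives the strandedness.

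Of the 223 hairpins 2 were called higher in KO and none lower at an adjusted p of 0.05 (limma), beside 3 (0.0334%) and 2 (0.0223%) of all 8971 genes tested. Both, Mir3057 and Mir8105, met the rule for detection only through the 3 KO libraries, so the rule itself put their KO values above WT and the calls describe these values rather than test them. Among the other 218 hairpins that did not pass through 1 group alone, 0 were called, beside 2 of the 8912 such genes among all tested. At an unadjusted p under 0.05, 24 hairpins were higher and 12 lower in KO, beside 708 (7.89%) and 239 (2.66%) of all genes tested. The median log2 difference was 0.11 for the hairpins and 0.12 for all genes tested. In value 121 hairpins were higher and 102 lower, beside 6959 and 2012 of all genes tested. All KO libraries lay above all WT libraries for 10 hairpins (4.48%), against 13.5% of all genes tested, and below for 11 (4.93%), against 3.07%. Without the 5 hairpins that passed through 1 group alone, 4 through KO and 1 through WT, these counts were 6 (2.75%) and 10 (4.59%). With the same exclusion the shares over all genes were 13.1% above and 2.91% below. Scaling by the median of ratios took the median of all genes tested to 0.01. It gave 7 hairpins above and 15 below, beside 590 and 667 of all genes tested. Quantile normalization gave 7 and 13, and the matching counts over all genes were not made. Of the 21, 15 had steps, and 13 of the 15 had 20 steps or fewer in all. The size of 1 step differed between libraries. Libraries with the same number of steps can therefore differ in TPM, and groups that tie in steps can count as not overlapping. Mir6394 and Mir7231, described below, are examples. How many of the 21 were such ties was not counted, so these shares do not show separation in steps.

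Both called hairpins were listed at 0 in all WT libraries. Mir3057 lies in an exon of Apba3, an adaptor protein gene (chr10:81271597-81271687, plus strand, 91 nt). It was listed at 0, 0, 0, 1.67, 2.17 and 1.98 TPM, which is 1 step in each KO library and none in WT. The log2 difference was 1.55 (SE 0.12, adjusted p 0.0102, limma), and its residual SD of 0.09 arises between KO values that each stand for 1 step. Over the other settings its adjusted p ran from 0.00034 to 0.107, and the call was lost without KO library 3 (0.107), with a pseudocount of 0.1 (0.0935) and without a filter (0.0573). Apba3 itself was listed at 3.08, 2.61, 2.08, 2.93, 2.55 and 2.42 TPM, with a log2 difference of 0.02 and an adjusted p of 0.951. Mir8105 lies in no annotated gene (chr10:128458680-128458768, plus strand, 89 nt) and was listed at 0, 0, 0, 1.7, 4.43 and 4.07 TPM, or 1, 2 and 2 steps in KO. Its log2 difference was 2.07 (SE 0.25, adjusted p 0.0491). Over the other settings the adjusted p ran from 0.00195 to 0.319, and it was above 0.05 when WT library 1, 2 or 3 or KO library 2 or 3 was left out (0.0715 to 0.154). It was also above 0.05 with either other pseudocount (0.0772 and 0.123), without a filter (0.319), with a filter on the mean (0.120), with the median of ratios (0.0774) and with quantile normalization (0.0749). On the log2(TPM + pseudocount) scale the size of both differences is set by the pseudocount: with 0.1 they were 4.34 for Mir3057 and 5.02 for Mir8105, and with 5 they were 0.47 and 0.73.

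Another 3 hairpins were listed at 0 in every library of a group and had adjusted p above 0.05. They too met the rule through the other group alone. Mir6362 (chr16:22605326-22605432, plus strand) was at 0 in WT and at 5.82, 1.87 and 1.6 TPM in KO, or 4, 1 and 1 steps (log2 difference 1.89, adjusted p 0.115, limma). It lies in an intron of Dgkg, a diacylglycerol kinase gene, but on the opposite strand, and Dgkg was listed at 0.24, 0.24, 0.18, 0.75, 0.8 and 0.9 TPM, too low to be tested and also with every KO value above every WT value. Mir7060, in an intron of Fbrs (chr7:127489251-127489387, plus strand), was at 0 in WT and at 1, 5.04 and 1.07 TPM in KO (log2 difference 1.55, adjusted p 0.205). In the other direction, Mir3066, in an intron of Nol10 (chr12:17355392-17355474, plus strand), was at 2.02, 10.6 and 7.5 TPM in WT, or 1, 4 and 4 steps, and at 0 in KO. Its log2 difference was -2.74 (SE 0.42, adjusted p 0.0925, limma), and 0.000619 without WT library 1. Nol10 was listed at 6.95, 6.47, 4.82, 7.48, 7.85 and 6.82 TPM, so host and hairpin differed in opposite directions in value.

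Mir21a, a microRNA widely induced in growth and repair, had the largest log2 difference among hairpins above 0 in every library whose groups did not overlap. It lies in an exon of Vmp1, an autophagy gene (chr11:86584067-86584158, minus strand), and was listed at 1.86, 2.39, 1.66, 15.0, 6.53 and 5.86 TPM. Each WT library held 1 step and the KO libraries 9, 3 and 3. The log2 difference was 1.67 (SE 0.30, adjusted p 0.133, limma), and 0.0413 with estimated library weights. Vmp1 was listed at 4.99, 8.73, 3.56, 8.76, 5.69 and 4.87 TPM, with overlapping groups. Mir378c was close to it, at 1.72, 2.24, 1.52, 4.75, 10.3 and 5.37 TPM, or 1 step in each WT library and 3, 5 and 3 in KO (adjusted p 0.124). Mir6394, in an intron of Tenm4, was at 1.72, 0, 0, 3.17, 4.12 and 1.79 TPM (log2 difference 1.48, adjusted p 0.221). Only KO library 3 lay just above the single WT value above 0, and these 2 values were 1 step each. Mir7001, in an intron of the tetraspanin gene Cd82 (chr2:93421929-93422007, minus strand), was the best filled of these, at 14.5, 19.4, 23.9, 29.4, 39.0 and 63.4 TPM, or 7, 7, 12, 16, 16 and 27 steps. Its adjusted p was 0.218, and Cd82 was listed at 57.5, 65.5, 47.0, 87.1, 78.6 and 76.0 TPM, also with every KO value above every WT value (adjusted p 0.285).

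**Figure D3:**
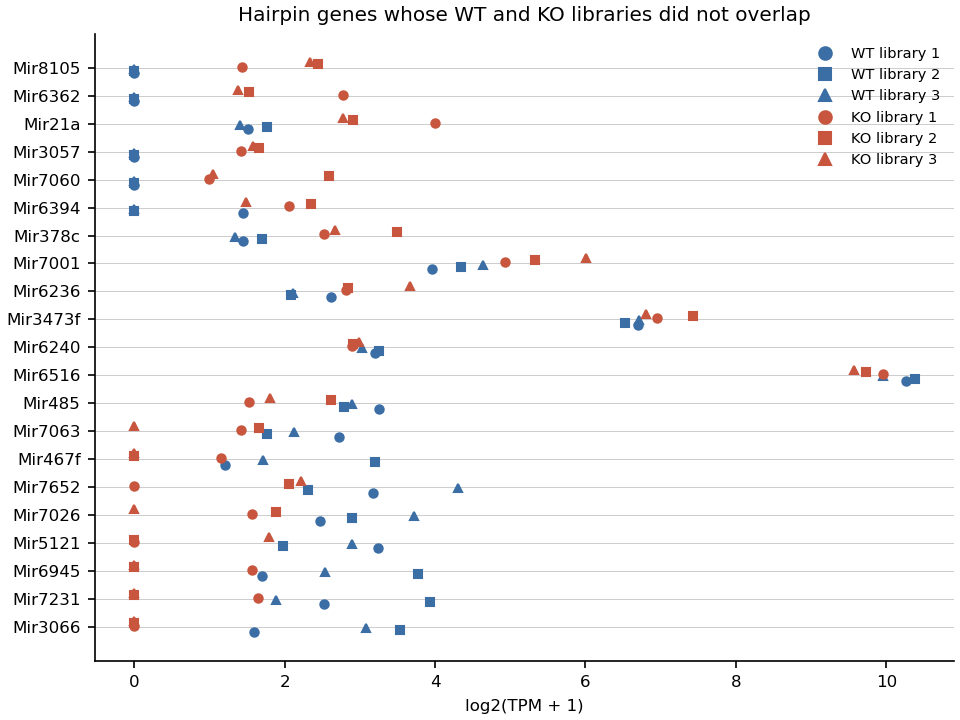
log2(TPM + 1) in each library for the 21 hairpin genes whose 3 WT (blue) and 3 KO (red) libraries did not overlap, ordered by the difference between groups. Mir8105, Mir6362, Mir3057 and Mir7060 have every WT library at 0 and Mir3066 every KO library at 0, while Mir6516 and Mir3473f are the only ones of high level.

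After Mir3066, the largest differences towards lower values in KO were found in hairpins with a 0 in KO. Mir7231, in an exon of Foxj2, was listed at 4.77, 14.3, 2.68, 2.12, 0 and 0 TPM (log2 difference -2.24, adjusted p 0.219). Mir6945, in an exon of Pdlim7, was at 2.26, 12.7, 4.82, 1.96, 0 and 0 TPM (-2.15, adjusted p 0.221). In both, WT library 2 was the highest and only KO library 1 was above 0. That KO value was 1 step in both, as was the lowest WT value, so the groups touched in steps. Mir5121, in an exon of the ribosomal protein gene Rpl13a (chr7:45126918-45126991, minus strand), was at 8.45, 2.93, 6.41, 0, 0 and 2.47 TPM (-2.10, adjusted p 0.193). Rpl13a was listed at 370, 488, 425, 291, 277 and 266 TPM with a log2 difference of -0.61 and an adjusted p of 0.193, so that all its KO values also lay below all WT values. Mir7026, in an intron of Ep400, was at 4.55, 6.46, 12.1, 1.97, 2.69 and 0 TPM (-1.88, adjusted p 0.221). Mir7652, in an exon of G3bp1, was at 8.06, 3.97, 18.7, 0, 3.16 and 3.63 TPM (-1.84, adjusted p 0.349). None of Foxj2, Pdlim7, Ep400 and G3bp1 differed by more than 0.05 in log2 value. Among the 107 same-strand host genes tested none passed the threshold (smallest adjusted p 0.0971, limma). In value 87 of them were higher and 20 lower, beside 6959 and 2012 of all 8971 genes tested. After scaling by the median of ratios the host counts became 58 and 49, beside 4695 and 4276 of all genes tested.

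**Figure D4:**
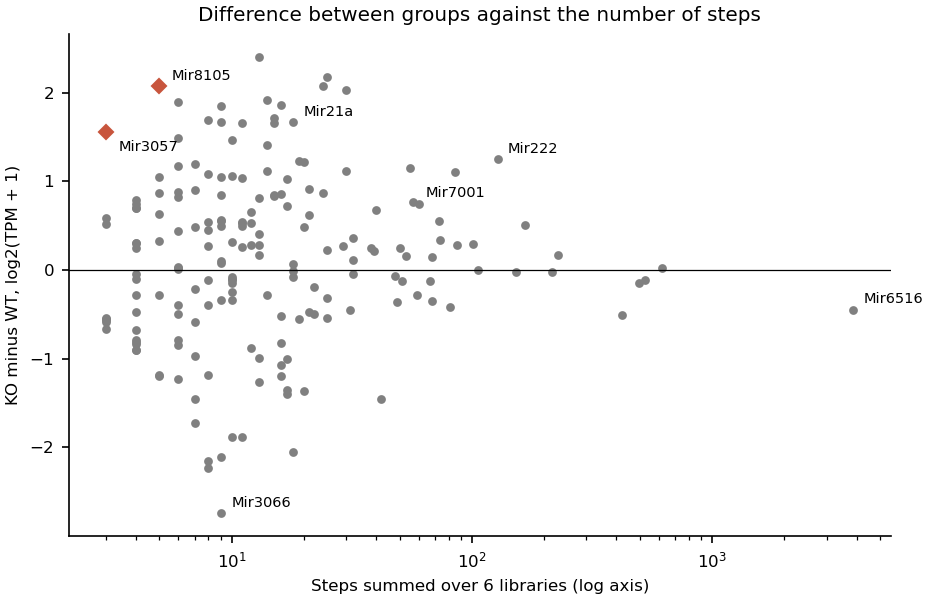
Difference between KO and WT on log2(TPM + 1) against the number of steps summed over the 6 libraries (log axis) for the 185 hairpins with steps. Red diamonds are Mir3057 and Mir8105, the only ones past the threshold, with 3 and 5 steps, and above 100 steps the differences lie between -0.51 and 1.25.

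Many hairpins are cut from a shared primary transcript. With neighbours on one strand within 10 kb, 13 clusters had at least 2 detected hairpins and held 61 of the 223. None of the 61 passed the test (smallest adjusted p 0.230, Mir485, limma). In value 40 of them were higher and 21 lower, beside 6959 and 2012 of all 8971 genes tested. Groups did not overlap in TPM for 1, Mir485, lower in KO, beside 13.5% of all genes above and 3.07% below. In steps its WT library 2 (5.93 TPM) and KO library 2 (5.16 TPM) were equal. After scaling by the median of ratios 2 of the 61 had every KO value below every WT value, beside 667 of all genes tested. The cluster sums below cover all listed hairpins of a cluster, detected or not, and have no test.

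The largest set lay in the imprinted Dlk1 to Dio3 domain of chromosome 12, which is expressed from the maternal chromosome as the noncoding RNAs Meg3, Rian and Mirg and is active in muscle stem cells. Its cluster from Mir379 on (chr12:109709060-109747960, plus strand) had 23 of 38 hairpins detected, among them Mir134, Mir154, Mir377, Mir379, Mir409 and Mir541. Their sum was 101, 116, 70.5, 137, 147 and 155 TPM, 96.0 ± 23.4 in WT and 146 ± 9.15 in KO (SD, n = 3 each), a ratio of 1.52. Every KO library lay above every WT library for this sum alone among the 13 clusters, beside 13.5% of all genes tested. It also did so after scaling by the median of ratios (ratio 1.39), beside 590 of all 8971 genes tested. That scaling was added here after the data were seen. In steps the detected members with steps summed to 29, 36 and 29 in WT and 59, 48 and 45 in KO. Of the 23, 18 were higher and 5 lower in value, a split similar to the 6959 and 2012 of all 8971 genes tested. Their median log2 difference was 0.54. After scaling by the median of ratios the counts were 17 and 6, beside 4695 and 4276 of all genes tested. Of the 23, 16 had a 0 in at least 1 library. The members differed among themselves: Mir668 was at 6.91, 0, 4.95, 5.96, 27.0 and 17.0 TPM, Mir1193 at 16.7, 11.4, 5.6, 17.1, 14.0 and 27.7, and Mir485 went the other way at 8.53, 5.93, 6.47, 1.87, 5.16 and 2.51. All 3 clusters of the domain together, with 33 of 55 hairpins detected, summed to 140, 149, 103, 176, 236 and 203 TPM, a ratio of 1.57.

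The long noncoding RNAs of this domain had higher values in KO as well. Rian was listed at 29.1, 24.3, 21.9, 46.5, 49.1 and 46.4 TPM, with tight KO values all above WT (log2 difference 0.90, SE 0.14, adjusted p 0.0971, limma). Meg3 was at 44.4, 30.1, 27.5, 50.9, 69.3 and 66.1 TPM (log2 difference 0.87, SE 0.21, adjusted p 0.194) and Mirg at 4.48, 2.98, 3.21, 6.35, 6.06 and 5.92 (0.66, SE 0.15, adjusted p 0.185). None of the 3 passed the threshold. In each every KO value lay above every WT value, as in 13.5% of all genes tested. After scaling by the median of ratios the groups still did not overlap, as in 590 of all 8971 genes tested. The log2 differences were then 0.75, 0.72 and 0.53. Part of the hairpins lie within Rian or Mirg, so these values are not independent of each other.

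**Figure D5:**
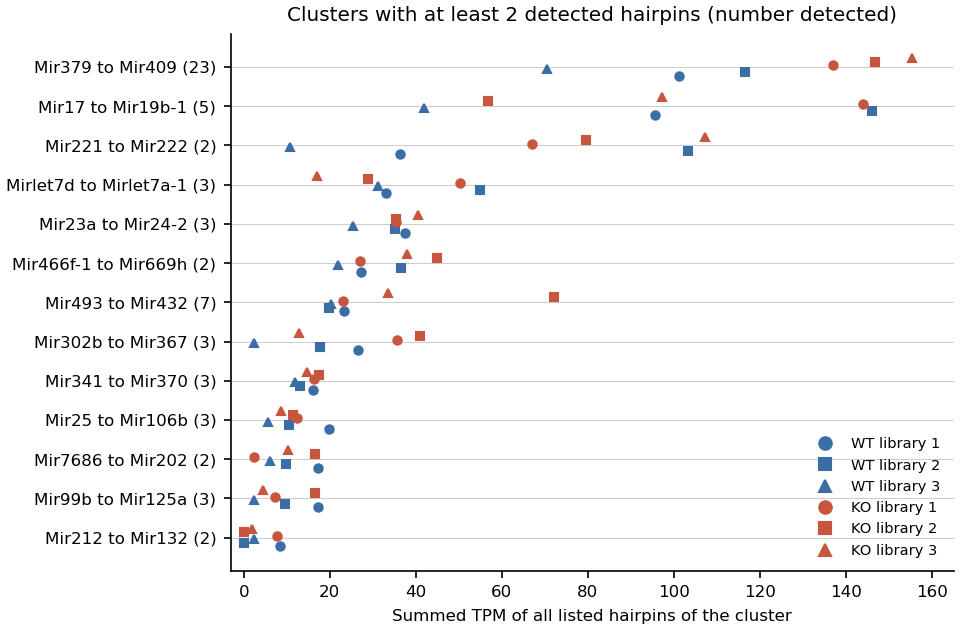
Summed TPM of the listed hairpins in each of the 13 clusters with at least 2 detected hairpins (number detected in brackets), by WT (blue) and KO (red) library. Only the cluster from Mir379 to Mir409 has all KO libraries above all WT libraries, as do 13.5% of all genes tested.

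In the other 12 clusters the sums overlapped between groups. The Mir17 to Mir19b-1 cluster, known for promoting proliferation (chr14:115043671-115044506, plus strand, 5 of 6 detected with Mir92-1 below the rule), summed to 95.5, 146, 41.9, 144, 56.7 and 97.3 TPM. Its host Mir17hg was listed at 5.23, 9.72, 3.41, 9.8, 5.67 and 5.67 TPM. In both, WT library 2 and KO library 1 were the 2 highest and WT library 3 the lowest. Mir221 and Mir222 (chrX:19146294-19146971, minus strand) summed to 36.2, 103, 10.8, 67.0, 79.6 and 107 TPM, with WT libraries spread from the lowest value to nearly the highest. Mir23a, Mir27a and Mir24-2 (chr8:84208518-84208921, plus strand) were among the more even, at 37.4, 35.1, 25.5, 35.4, 35.4 and 40.5. The cluster of Mirlet7d, Mirlet7f-1 and Mirlet7a-1 (chr13:48536012-48538272, minus strand) summed to 33.0, 55.0, 31.2, 50.2, 29.0 and 16.9. The cluster of Mir302b, Mir302a and Mir367, best known from pluripotent cells (chr3:127545228-127545807, plus strand), summed to 26.6, 17.8, 2.47, 35.6, 41.0 and 12.9. Its detected members held 0 to 19 steps a library. All of these lie in an intron of Larp7 on the opposite strand, listed at 15.2, 17.8, 14.5, 19.3, 15.8 and 16.1 TPM. The part of Larp7 reads in their values was not tested. The chromosome 12 cluster from Mir493 to Mir432 summed to 23.3, 19.8, 20.3, 23.0, 72.0 and 33.5, high in KO library 2. The large Sfmbt2 cluster on chromosome 2 had 2 of 71 hairpins detected, Mir466f-1 and Mir669h. Smaller sums, of at most 19.9 TPM in any library, came from Mir25, Mir93 and Mir106b in Mcm7, from Mir99b, Mirlet7e and Mir125a, from Mir7686 and Mir202, from Mir212 and Mir132, and from Mir341, Mir1188 and Mir370 of the chromosome 12 domain.

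Of 11 listed microRNAs of the muscle list, 2 passed the rule, a share similar to the 223 of all 1172 hairpin rows. They were Mir1b at 6.33, 1.6, 3.32, 4.81, 0 and 5.19 TPM and Mir486 at 1.18, 0, 2.06, 0, 0 and 3.6. The groups overlapped in both. On the same strand Mir1b lies in an intron of Mib1 (mean 7.94 TPM) and Mir486 in an intron of Ank1 (mean 11.2 TPM). The part of host reads in the 2 hairpin values was not tested. Mir1a-1, Mir1a-2, Mir206, Mir208a, Mir208b and Mir499 were listed at 0 in every library. Mir133a-1 was at 2.69 TPM in KO library 2 and 16.6 in KO library 3 and at 0 in the others, Mir133a-2 was above 0 in KO library 1 only (1.5 TPM), and Mir133b in WT library 2 only (1.53 TPM). Markers of mature fibres summed to 9.99, 13.0, 24.9, 6.97, 37.5 and 33.6 TPM, highest in the 2 KO libraries that had Mir133a-1, and their part in its values was not tested.

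Of 21 listed microRNAs known from satellite cell quiescence and activation, 5 were detected, beside 223 of all 1172 hairpin rows. Mir29a was at 40.2, 29.9, 19.1, 51.6, 29.1 and 28.9 TPM, Mir27a, a repressor of Pax3, at 5.83, 12.6, 8.82, 10.4, 11.3 and 10.4, and Mir106b at 6.08, 8.06, 0, 3.62, 2.37 and 2.23. Mir221 was at 7.2, 25.6, 4.78, 22.9, 23.5 and 22.6 TPM and Mir222 at 29.0, 77.6, 5.97, 44.1, 56.1 and 84.5, and in all 5 the groups overlapped. Mir31, Mir489, Mir127, Mir27b, Mir181a-1, Mir181a-2, Mir322, Mir503, Mir16-1 and Mir675 were listed at 0 in every library. Mir675 is cut from H19, which was listed at 3.24, 4.24, 1.81, 12.2, 13.9 and 16.6 TPM. It was called higher in KO just under the threshold (log2 difference 1.93, SE 0.23, adjusted p 0.0491, limma). The H19 call was lost with a pseudocount of 0.1, without a filter and with a filter on the mean, where no gene was called higher. It was also lost with the median of ratios and with quantile normalization, where only a hairpin was. A 0 gives no upper limit here, since the depth is unknown.

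Of 8 listed blood cell microRNAs only Mir150, of lymphocytes, was detected, at 6.89, 13.0, 5.01, 2.01, 0 and 17.3 TPM. Mir142, Mir223 and Mir155 were at 0 in every library, Mir144 was above 0 in KO library 1 only (1.99 TPM), and Mir451a and Mir451b in WT library 2 only (3.03 TPM each). None of the 5 listed endothelial and mural microRNAs was detected: Mir126a, Mir126b, Mir145a and Mir145b were at 0 and Mir143 was at 2.35 TPM in WT library 1 only. Over all 1172 hairpin rows 223 were detected.

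None of the genes that process and use microRNAs passed the test. Of 35 tested, 28 were higher and 7 lower in value in KO, beside 6959 and 2012 of all genes tested. With scaling by the median of ratios these counts were 19 and 16, beside 4695 and 4276 of all genes tested. None of the 35 passed the threshold (limma, here and under every other setting tried), and 1 in each direction had an unadjusted p under 0.05. The median log2 difference was 0.12, equal to that of all genes. Drosha was listed at 2.71, 2.88, 2.67, 2.28, 3.59 and 3.55 TPM and Dgcr8 at 1.46, 1.25, 0.98, 1.37, 1.53 and 1.67. The exporter Xpo5 was at 2.27, 2.48, 1.85, 2.38, 2.71 and 2.54 TPM, Dicer1 at 3.25, 3.81, 2.8, 2.83, 3.69 and 3.3, and Ago2, the Argonaute with slicer activity, at 5.51, 6.75, 5.32, 6.22, 6.41 and 6.26. All 5 overlapped between groups. Groups did not overlap for Cnot6, Cnot7, Hnrnpa1 and Zswim8, higher in KO, and for Limd1, lower, shares close to the 13.5% and 3.07% of all genes tested. After scaling by the median of ratios the counts were 1 above and 3 below. The smallest p in each direction belonged to Zswim8, a ubiquitin ligase factor in target-directed microRNA decay, at 2.98, 3.01, 2.8, 3.98, 3.86 and 4.2 TPM (log2 difference 0.35, adjusted p 0.295), and to Limd1, which bridges Argonaute to its effectors, at 5.46, 4.85, 4.85, 3.63, 3.58 and 3.13 (log2 difference -0.45, adjusted p 0.227).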

How the data were processed

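RNA-seq was done on 6 libraries of sorted satellite cells, 3 WT and 3 KO by the labels. The tools in the submitters' processing notes are kallisto, CASAVA, FastQC and Trimmomatic 0.33, with GRCm38 and mm10 as builds. The annotation, the strandedness and any ribosomal RNA or poly(A) step are not given in the sources used here. Levels are TPM by gene symbol as the authors deposited them, without read counts, so sequencing depth is unknown and no interval for counting error can be given. The 8971 genes that reached 1 TPM in 3 or more libraries were kept, and log2(TPM + 1) was tested with limma 3.58.1 in R 4.3.3 (lmFit, eBayes with a trend, two-sided, Benjamini-Hochberg over all genes tested, threshold 0.05). This scale understates the change of low genes. Coordinates (1-based, GRCm38) came from RefSeq GRCm38.p6 for 186 hairpins and GENCODE vM21 for 37. A host is a gene on the same strand whose span contains the hairpin.

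A step was fitted per library as a smooth function of hairpin length from 58 to 110 nt, and a value counted as whole within 0.1 step, checked under 8.5 steps. The step fit recovered the steps of simulated data. In data simulated on 8971 genes limma called 69 of 100 genes changed 2-fold and 95 of 100 changed 4-fold, with 9 false calls. The changed genes were drawn only from genes above the level of the median hairpin, so these shares do not apply to most hairpins. The named hairpins are those called, those at 0 in a whole group, the 12 of highest mean, the 6 of largest log2 difference in each direction among those whose groups did not overlap, those of clusters and of the muscle, quiescence, blood and vessel lists; Mir378c, Mir7001, Mir692-2, Mir692-3, Dgkg and the hairpins next to the threshold were named after their values were seen. The members, the lists and the tests were chosen with earlier results of these data known. Pseudocounts of 0.1 and 5 were also tried, as were other filters, scalings and eBayes options, library weights and leaving out each library; the steps, the scaled cluster sums and the counts without genes that passed the filter through 1 group alone were added after the data were seen. No sequence from chromosome 18 is printed. Values of 1 cell type marker list are not reported here.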

Additional observations from a re-analysis of the deposited data

How the results depend on the processing

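The number of hairpins called higher in KO was 2 and became 0 with a pseudocount of 0.1, without a filter, with a filter on a mean TPM of 1 (which Mir3057 does not enter because its mean is lower) and with TPM of 5 or more in 3 libraries, 1 with a pseudocount of 5, with the median of ratios and with quantile normalization, and 6 with estimated library weights. The number called lower was 0 and became 1 with a pseudocount of 0.1. Leaving out 1 library gave 0 to 3 hairpins called higher and 0 to 1 called lower. Over all genes the 3 that rose became 0 with a pseudocount of 0.1, without a filter or with a mean TPM of 1, 1 with TPM of 5 or more, the median of ratios or quantile normalization, 17 with robust variances and 53 with library weights. The 2 that fell became 0 with a pseudocount of 5, without a filter, with a mean TPM of 1 or with quantile normalization, 16 with robust variances and 27 with library weights. Leaving out 1 library gave 0 to 4 that rose and 0 to 2 that fell.

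With TPM of 5 or more in 3 libraries, 4 hairpins had every KO library above WT and 3 below. With 1 library left out the counts were 12 to 31 and 14 to 25, as fewer libraries leave fewer values that can overlap. The matching counts over all genes were not made under these settings, so these counts cannot be set against that share. Scaling by the median of ratios gave 7 above and 15 below, beside 590 and 667 of all genes tested. It moved the median log2 difference of all genes from 0.12 to 0.01. The log2 difference of Esr1 (-0.86) passed the threshold with robust variances (-0.86, adjusted p 0.0240) and library weights (-0.86, adjusted p 0.0222), limma in both. The rule gave 225 hairpins at 0.5 TPM, 185 at 2 TPM and 78 with TPM of 1 or more in all 6 libraries, and 14 clusters at 50 kb. Of 192 recomputed log2 differences of 12 named hairpins, 173 kept direction and call, 14 lost the threshold, 5 gained it and 0 reversed. These 12 were chosen because their groups did not overlap. Leaving out a library or changing the pseudocount, filter or eBayes option could therefore not reverse them. Only Mir3057 and Mir8105 were called at the start, so for the others keeping the call means that they stayed uncalled. The cause of the other changes was not tested. With 2 libraries left in an arm, the spread is pooled over both groups. No paired analysis was possible because no number in the titles is shared by 2 libraries. Steps of 1.31 TPM or more limit what a low hairpin can show.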
